A study of Rattus norvegicus with 9 samples.

Results

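The 8 genes described here encode the core of the angiotensin and endothelin systems. They are the precursor Agt, the converting enzyme Ace and the receptors Agtr1a and Agtr2 on the angiotensin side. On the endothelin side they are the precursor Edn1, the converting enzyme Ece1 and the receptors Ednra and Ednrb. They were taken by symbol from a list of 8 out of 17337 genes in the count table, and all 8 were found. Their RNA was measured in 9 RNA-seq libraries of cultured cardiac fibroblasts, the connective-tissue cells of the heart, from Sprague Dawley rats. Per the labels, 3 libraries came from fetal hearts (embryonic day 18), 3 from neonatal hearts (postnatal day 1) and 3 from adult rats (7 weeks), and no group carried a treatment or an altered gene. All cells were grown to confluency at passage 0 in serum-containing medium with ascorbic acid. The labels name no sort, animal number, sex or sequencing batch, and do not say whether libraries of 1 age came from separate animals or cultures, so p-values here measure the spread between libraries, which may be technical.

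In the angiotensin system angiotensinogen, the product of Agt, is cut to angiotensin I, and angiotensin converting enzyme trims this to the active peptide angiotensin II. The type 1 receptor, which in rats is encoded by Agtr1a and Agtr1b, couples mainly to Gq proteins and is known in cardiac fibroblasts for driving growth and matrix production, and the type 2 receptor is best known from fetal tissue and often opposes it. In the endothelin system, endothelin converting enzymes cut big endothelin to the peptide endothelin 1, which acts through the receptors of types A (Ednra) and B (Ednrb). Type A is known for contraction and growth, and type B is abundant on endothelial cells, where it also clears the peptide.

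Adult cultures held more Edn1, Agtr1a and Ednrb RNA than neonatal and fetal cultures and less Ednra RNA than either, and no count of Agtr2 was found in any adult library. Of the 8 genes, 7 passed the filter on low counts and were tested with edgeR's quasi-likelihood test over all 11337 genes that passed, at an adjusted p of 0.05. Agtr2 did not pass and is given as counts only. From fetal to neonatal cells 1 of the 7 tested genes was called (Ednra, lower), where 36.3% of all tested genes were called. Between adult and neonatal cells 4 were higher and 1 was lower, where 63.5% of all genes were called (31.6% higher and 31.8% lower). In the comparison of adult with fetal cells 4 were again higher and 1 lower, where 70.5% of all genes were called (34.9% higher and 35.5% lower). In both adult comparisons the share called among these genes was thus near that of the whole table. Counted by libraries that did not overlap between ages, 5 of the 7 genes were apart for neonatal against fetal (57.4% of all tested genes), 5 for adult against neonatal (76.1%) and 6 for adult against fetal cells (71.8%). Their median log2 difference was 0.27 for neonatal against fetal, 1.67 for adult against neonatal and 1.26 for adult against fetal cells, where the medians over all tested genes were -0.0053, -0.0065 and -0.013. The TMM scaling keeps such signed medians over all genes near 0. Taken without sign, the median log2 differences over all tested genes were 0.29, 0.52 and 0.63.

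**Figure D1:**
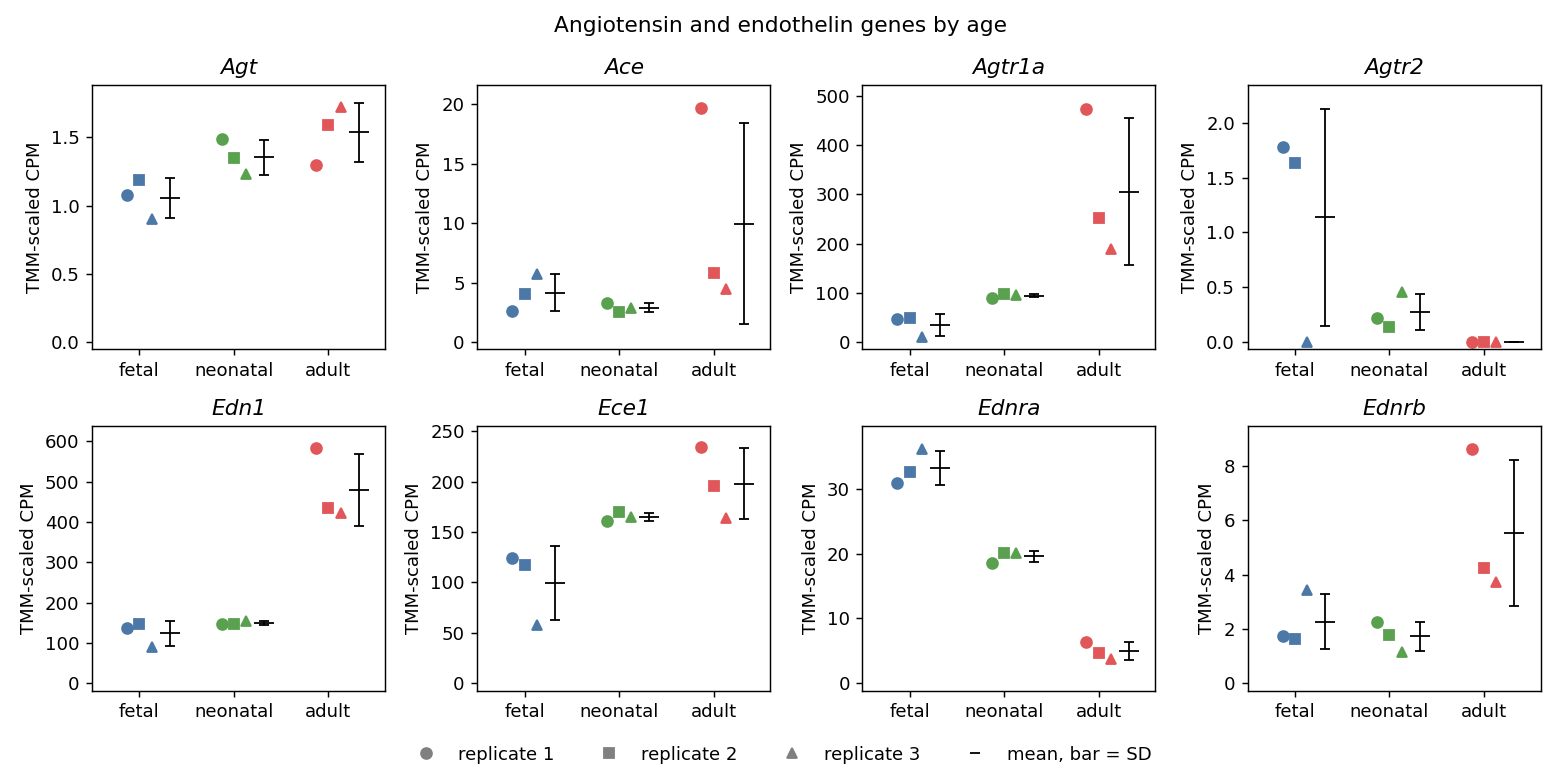
Level of each of the 8 genes in every library, in CPM (counts scaled to a common total, with TMM factors), on linear axes with a scale of its own in each panel. Symbols mark replicates 1 to 3, and the black mark and bar give the mean and SD over 3 libraries. Adult libraries stand highest for Agtr1a, Edn1 and Ednrb and lowest for Ednra, and all adult libraries are at 0 for Agtr2.

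Libraries held 13392825 to 22850491 assigned counts, with the 3 adult libraries the shallowest. As a sum, markers of the labelled cell were abundant in all ages. The 10 fibroblast markers summed to 26495 to 53252 CPM in fetal, 70674 to 76919 in neonatal and 26667 to 34608 in adult libraries. Most of each sum was Col1a1 and Col3a1. Counts of single markers could be low, with Col1a2 at most at 0.976 CPM in any library and Tcf21 at 6.91 to 14.4 CPM in fetal ones. Col1a1 stood at 11890 to 40025 CPM over the 9 libraries. Whether the Col1a2 count reflects the level of its RNA was not tested. Fetal replicate 3 stood apart from the other fetal libraries, with 276 CPM in the 7 epithelial markers against 13.8 and 15.6. The 6 mesothelial markers held 204 CPM there against 72.9 and 70.1. That excess was mainly in the keratin Krt8 (144 CPM against 10.2 and 11.3). Wt1, Msln and Krt19 were close to the other fetal libraries, and Upk1b (7.12 CPM against 5.56 and 5.25) and Bnc1 were slightly higher. Fetal replicate 3 had about as much fibroblast marker RNA as adult replicate 1. Adult replicate 1 had the lowest macrophage sum (4105 CPM) and the lowest mural sum (294 CPM) of the adult libraries. Its fibroblast markers went both ways. It was the lowest adult library for Col1a1, Col3a1, Thy1, Lum and Vim, and the highest for Pdgfra, Tcf21, Ddr2, Dcn and the barely counted Col1a2. The 12 macrophage markers summed to 14.8 to 71.2 CPM in fetal, 163 to 180 in neonatal and 4105 to 5801 in adult libraries, and all 12 were higher in each adult library than in each younger one. The 12 cardiomyocyte markers summed to 7284 to 10929 CPM in fetal, 5164 to 5736 in neonatal and 305 to 320 in adult libraries, and in the last Myh6, Myh7, Myl2, Myl7 and Csrp3 were at or below 3 counts. In such bulk samples fewer cells of a type and less RNA per cell cannot be told apart.

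Agt, the only source of angiotensin peptides, was barely detected at any age. Its levels were 1.08, 1.19 and 0.903 CPM in fetal replicates 1, 2 and 3, from 20, 27 and 17 counts. In neonatal replicates 1 to 3 they were 1.49, 1.35 and 1.23 CPM, and in adult replicates 1.30, 1.59 and 1.72 CPM. Every neonatal and adult library thus lay above every fetal one, while neonatal and adult libraries overlapped. The differences did not pass the threshold, at log2 0.53 (SE 0.264, adjusted p = 0.0965 by edgeR) for adult against fetal cells and 0.35 (SE 0.259, adjusted p = 0.309) for neonatal against fetal cells. Per kilobase of exon, 8.31% of tested genes lay below Agt in fetal and 10.8% in adult cells. The 7 hepatocyte markers, genes of the main Agt-producing cell of the body, summed to at most 1.12 CPM in any library, and Alb and Fgb were at or below 3 counts throughout.

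Ace RNA was low and uneven. It stood at 2.65, 4.01 and 5.74 CPM in fetal, 3.30, 2.56 and 2.85 in neonatal and 19.7, 5.78 and 4.42 in adult replicates 1 to 3. Adult replicate 1 alone lay far above the others, and the other adult libraries overlapped the fetal range. Ace was called higher in adult than in neonatal cells (log2 1.78, SE 0.550, edgeR adjusted p = 0.0189), but without adult replicate 1 the log2 difference was 0.81 and the call was lost (adjusted p 0.0580). It was also lost without neonatal replicate 2 (0.0641) or 3 (0.0556) and with only these 2 ages in the fit (0.0513), within a range of 0.00176 to 0.0641. Against fetal cells the difference was 1.26 (SE 0.533, adjusted p = 0.0584), and 0.31 without adult replicate 1 (adjusted p 0.418). It passed in 4 of 16 alternatives. These were DESeq2 (0.0289), the fits without adult replicate 2 (0.0387) or 3 (0.0180), and the fit without both adult replicate 1 and fetal replicate 3. In this last fit, chosen after seeing the data, Ace was also called higher in adult than in neonatal cells. The adult mean was 9.95 ± 8.44 CPM (SD, n = 3), and 5.10 CPM without adult replicate 1.

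Agtr1a, the type 1 angiotensin receptor, had the highest mean level of the 4 receptors at each age per kilobase of exon, though in fetal replicate 3 it stood at 4.30 CPM per kilobase against 7.86 for Ednra. It was read at 45.9, 49.5 and 9.40 CPM in fetal replicates 1 to 3, at 90.3, 97.3 and 95.3 CPM in neonatal and at 474, 253 and 190 CPM in adult replicates. The ages did not overlap, and their order was fetal, neonatal, adult, with fetal replicate 3 the lowest and adult replicate 1 the highest of all 9 libraries. Means were 34.9 ± 22.2, 94.3 ± 3.61 and 306 ± 150 CPM (SD, n = 3 each). Adult cells held 8.73-fold more Agtr1a RNA than fetal cells (log2 3.13, SE 0.568, edgeR adjusted p = 0.000999), a change exceeded in size by 10.3% of all tested genes. The log2 difference was 2.67 without fetal replicate 3, 2.66 without adult replicate 1 and 2.21 without both, and stayed past the threshold (adjusted p 0.00203, 0.00281 and 4.40e-07). Adult against neonatal cells gave log2 1.70 (SE 0.535, adjusted p = 0.0211), which was lost without adult replicate 1 (1.23, adjusted p 0.0742) and without any 1 neonatal library (0.0611 to 0.0656), within a range of 9.36e-06 to 0.0742. For neonatal against fetal cells the value was 1.43 (SE 0.540, adjusted p = 0.0681) and did not pass. Without fetal replicate 3 that difference was 0.98 (adjusted p 0.113). Per kilobase of exon Agtr1a rose from above 58.2% of tested genes in fetal to above 93.9% in adult cells.

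Mural cells (pericytes and smooth muscle) also carry this receptor, and the 8 mural markers summed to 294 to 603 CPM in adult libraries against 2527 to 2615 in neonatal and 1058 to 1920 in fetal ones. From fetal to neonatal libraries the mural sum and Agtr1a were both higher, and fetal replicate 3 was the lowest fetal library in both (mural sum 1058 CPM against 1897 and 1920). Between neonatal and adult libraries the mural sum was lower and Agtr1a higher, and adult replicate 1 had the lowest mural sum and the highest Agtr1a level. The part of mural cells in the Agtr1a differences was not tested. Agtr1b, the second type 1 receptor gene of rats, is named here, like Mas1, Edn2 and Edn3 further on, after its values were seen. It was at 0 counts in all neonatal and adult libraries and at 1, 3 and 4 counts in fetal ones. Reads that fit both receptor genes equally well were left out by the counting.

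Agtr2, the type 2 angiotensin receptor, was at the limit of detection. Fetal replicates 1, 2 and 3 held 33, 37 and 0 counts (1.78, 1.63 and 0 CPM), neonatal replicates 4, 3 and 7 counts (0.220, 0.139 and 0.453 CPM) and adult replicates 0 counts each. Fetal replicates 1 and 2 thus stood above all other libraries, and fetal replicate 3 was at 0 like the adult ones. A count of 0 in the adult libraries allows up to 0.217 to 0.230 CPM each (3 counts, counting error only, as these PCR reads carry no molecular identifiers and need not be independent molecules), so neonatal replicates 1 and 2 cannot be told from the adult libraries at this depth. Set against that floor, adult cells were at least 5.09-fold below the fetal mean of 1.14 CPM, and at least 7.63-fold below the mean of 1.71 CPM without fetal replicate 3. With no filter on low counts the edgeR adjusted p was 0.0213 for adult against fetal, 0.134 for adult against neonatal and 0.233 for neonatal against fetal cells. DESeq2 gave adjusted p-values of 0.00102, 0.0365 and 0.254, so the call for adult against neonatal cells differed between the tools. Where fits without 1 or more libraries kept the gene, they did so through its high fetal libraries, and their p-values are not used here.

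The balance of both angiotensin receptors was taken within each library as the log2 level per kilobase of Agtr2 minus that of Agtr1a, with a prior count of 2. It was -4.26 ± 0.958 in fetal, -7.01 ± 0.595 in neonatal and -10.3 ± 0.676 in adult cells (SD, n = 3 each), so Agtr1a exceeded Agtr2 in every library. No test is given for this balance, because the 3 adult libraries and fetal replicate 3 had no Agtr2 count and their values are set by the prior count. With a prior count of 0.5 the adult minus fetal difference was -7.29 in place of -5.99. Agtr2 was counted over 1 exon of 1092 bases, so reads from any other exon of the gene were not counted.

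Edn1 was the most abundant of the 8 genes at each age per kilobase of exon. It was read at 137, 146 and 89.0 CPM in fetal replicates 1 to 3, at 148, 146 and 155 CPM in neonatal and at 583, 436 and 421 CPM in adult replicates. All adult libraries lay above all others by a wide gap, and the neonatal range began just above the fetal maximum. Means were 124 ± 30.7, 149.8 ± 4.56 and 479.9 ± 89.2 CPM (SD, n = 3 each). Adult cells held 3.87-fold more than fetal cells (log2 1.95, SE 0.190, edgeR adjusted p = 1.71e-05) and 3.20-fold more than neonatal cells (log2 1.68, SE 0.189, adjusted p = 6.12e-05). Neonatal and fetal cells were not called different (log2 0.27, SE 0.185, adjusted p = 0.273). In adult cells 98.0% of tested genes lay below Edn1 per kilobase, against 91.9% in fetal cells. The adult difference was past the threshold in all 16 alternatives of both adult comparisons.

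Endothelial cells are the best known source of endothelin 1. The 13 endothelial markers summed to 197 to 238 CPM in fetal, 148 to 149 in neonatal and 187 to 206 in adult libraries, and most of the fetal sum was Flt1 (166 to 214 CPM there, 72.4 to 78.8 in adult libraries). Between adult and neonatal cells 6 of the 11 tested endothelial markers were higher and 3 lower, and between adult and fetal cells 5 were higher and 2 lower. Tie1, an endothelial receptor kinase, stood at 0.353 to 0.486 CPM in fetal, 1.596 to 2.14 in neonatal and 68.6 to 72.5 in adult libraries. Pecam1, the adhesion molecule of endothelial and blood cells, stood at 0.324 to 1.01 CPM in fetal and at 5.09 to 10.3 in adult libraries. Macrophages can also make the peptide, and their markers were highest in the adult libraries. The part of these cells in the Edn1 difference was not tested. Edn2 and Edn3, the other endothelin precursors, had no count in any library.

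Ece1, the main endothelin converting enzyme, changed less. Its levels were 124.5, 117 and 57.8 CPM in fetal, 161, 169 and 165 in neonatal and 234, 196 and 164 in adult replicates 1 to 3. All neonatal and adult libraries lay above all fetal ones, and the neonatal and adult libraries overlapped. It was 1.98-fold higher in adult than in fetal cells (log2 0.99, SE 0.257, edgeR adjusted p = 0.00755), and the difference between adult and neonatal cells did not pass (log2 0.26, SE 0.254, adjusted p = 0.395). Neonatal against fetal cells gave 0.73 (SE 0.256, adjusted p = 0.0544). Without fetal replicate 3 that difference shrank to 0.45 but was called (adjusted p 0.0199). Ece2, the related second enzyme, rose from 8.77 ± 1.65 CPM in fetal to 20.9 ± 0.943 in neonatal cells (edgeR adjusted p = 0.000223). It stood at 19.7 ± 1.02 CPM in adult cells (adjusted p 0.583 against neonatal).

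Ednra, the type A endothelin receptor, was the 1 tested gene called lower at each later age. It was read at 30.9, 32.6 and 36.1 CPM in fetal replicates 1 to 3, at 18.6, 20.1 and 20.1 CPM in neonatal and at 6.43, 4.62 and 3.74 CPM in adult replicates. The 3 ages were separate, with no overlap between any pair, and the means were 33.2 ± 2.67, 19.6 ± 0.861 and 4.93 ± 1.37 CPM (SD, n = 3 each). From fetal to neonatal cells Ednra fell by 0.76 on the log2 scale (SE 0.147, edgeR adjusted p = 0.00428), and adult cells held 6.73-fold less than fetal cells (log2 -2.75, SE 0.168, adjusted p = 6.87e-07) and 3.97-fold less than neonatal cells (log2 -1.99, SE 0.168, adjusted p = 9.19e-06). Fetal replicate 3, low in Agtr1a, Edn1 and Ece1, was the highest library for Ednra. All 3 calls were past the threshold in each of 16 alternatives. Mural and cardiomyocyte marker RNA was also lowest in the adult libraries. From fetal to neonatal libraries the cardiomyocyte sum was lower, as Ednra was, while the mural sum was higher (1058 to 1920 against 2527 to 2615 CPM). Fetal replicate 3 had the lowest fetal sum in both lists. Between adult and fetal cells 4 of 8 mural markers were called lower and 1 higher, and all 12 cardiomyocyte markers lower. The part of these cells in the Ednra difference was not tested.

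Ednrb, the type B endothelin receptor, went the other way. Its levels were 1.73, 1.63 and 3.45 CPM in fetal, 2.26, 1.77 and 1.17 in neonatal and 8.65, 4.26 and 3.74 in adult replicates 1 to 3. Each adult library lay above each younger one, though adult replicate 3 exceeded fetal replicate 3 only slightly, and the fetal and neonatal libraries overlapped. Adult cells held 3.18-fold more than neonatal cells (log2 1.67, SE 0.432, edgeR adjusted p = 0.00761) and 2.45-fold more than fetal cells (log2 1.29, SE 0.421, adjusted p = 0.0205). The second call was lost without adult replicate 1 (log2 0.82, adjusted p 0.0938), fetal replicate 1 (0.0668) or fetal replicate 2 (0.0691), within a range of 0.000346 to 0.0938. The neonatal against fetal difference of -0.38 (adjusted p = 0.525) turned to 0.060 without fetal replicate 3 (adjusted p 0.925). Schwann cells and melanocytes, which also carry this receptor, had a summed marker level of 7.73 to 11.6 CPM over all 9 libraries, with Tyr at or below 3 counts at each age. The endothelial markers Tie1 and Pecam1, given above for Edn1, were higher in each adult library than in each younger one, as Ednrb was. Kdr and Flt1, from the same list, were lower in each adult library than in each younger one. Of all 13 endothelial markers, 7 were higher and 3 lower in each adult library than in each neonatal one. Against the fetal libraries 8 were higher and 2 lower. The part of endothelial cells in the Ednrb difference was not tested.

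The endothelin receptors thus changed places between neonatal and adult cultures. On a per-length scale, Ednra stood at 7.23 ± 0.581 CPM per kilobase in fetal, 4.26 ± 0.187 in neonatal and 1.07 ± 0.298 in adult cells, and Ednrb at 1.13 ± 0.510, 0.860 ± 0.272 and 2.76 ± 1.34. Ednrb made up 10.3% to 17.9% of the summed receptor level in fetal, 11.7% to 21.7% in neonatal and 67.8% to 75.5% in adult libraries. The log2 balance of Ednrb minus Ednra was -2.69 ± 0.471, -2.27 ± 0.4998 and 1.30 ± 0.282. An exact permutation test over 1680 assignments of 9 libraries gave p = 0.0107 for any difference among ages. This p is not adjusted, as no test is given for the angiotensin balance. The endothelin balance was negative in all 6 younger libraries and positive in all 3 adult ones. The fetal and neonatal ranges of the balance overlapped. The sum of both receptors was 8.36 ± 1.07 CPM per kilobase in fetal, 5.13 ± 0.161 in neonatal and 3.84 ± 1.63 in adult cells, so adult libraries held less receptor RNA in total than fetal ones, while adult replicate 1 (5.70) exceeded every neonatal library.

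**Figure D2:**
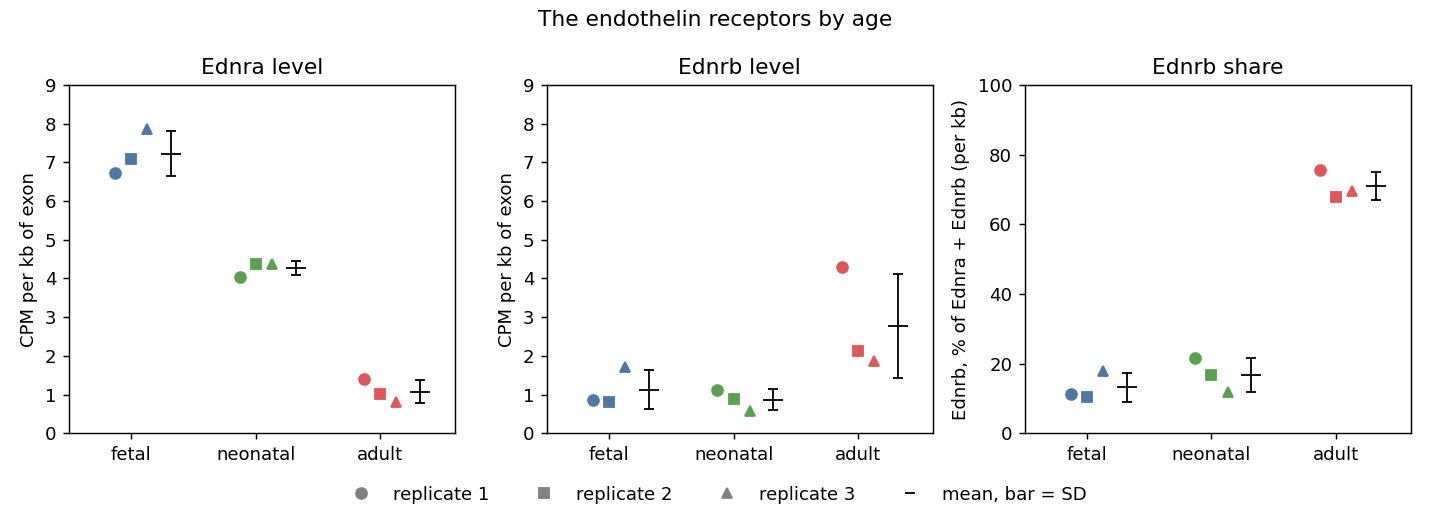
Levels of Ednra and Ednrb in CPM per kilobase of exon (left and middle, both axes from 0 to the same maximum) and Ednrb as a percent of the sum of both (right), for each library by age. The black mark and bar give the mean and SD over 3 libraries; the Ednrb share lies at 67.8% to 75.5% in the adult libraries and at most at 21.7% in the others.

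**Figure D3:**
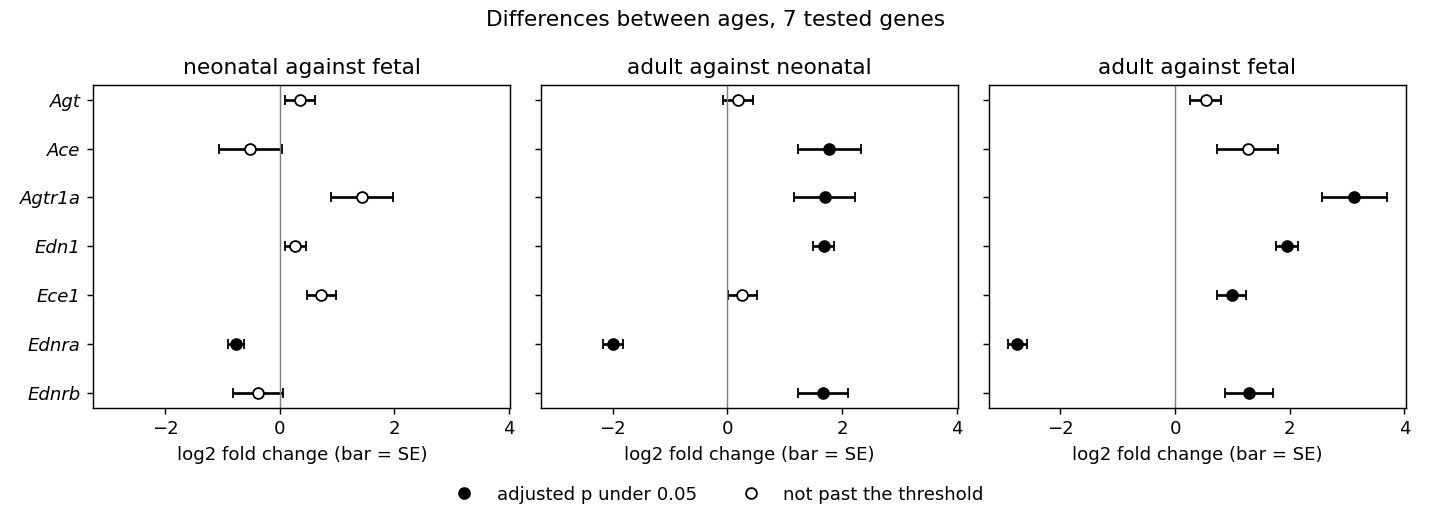
Log2 fold changes of the 7 tested genes in each pair of ages from the edgeR fit, with the SE as a bar and filled points for an adjusted p under 0.05. Ednra is on the lower side in all 3 panels, and Ace, Agtr1a, Edn1 and Ednrb are called higher in adult against neonatal cells.

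Adult replicate 1 was the highest of the adult libraries for Ace, Agtr1a, Edn1, Ece1, Ednra and Ednrb, and the lowest for Agt. Without both that library and fetal replicate 3, an alternative chosen after seeing the data, Agtr1a was called from fetal to neonatal cells (log2 0.98, edgeR adjusted p = 0.000179) and so was Ece1 (0.45, adjusted p = 7.24e-06). Of the 7 genes of the reported fit, 2 were then called higher and 1 lower for neonatal against fetal cells, where 53.0% of all tested genes were called. Adult against neonatal cells gave 4 higher and 1 lower (75.7% of all genes), and adult against fetal cells 5 higher and 1 lower (77.9%).

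Promoter sequences were available for 7 of the 8 genes. Those of Edn1 and Agtr1a, both called higher in adult than in younger cells, and of the receptors Ednra and Ednrb, which moved apart, are shown for the 250 bases before the gene start as annotated by RefSeq on GRCr8 (5′ to 3′ on the strand of the gene). Capitals mark matches on either strand to any of 5 motifs. The TATA box was searched as TATAAA. The GATA motif, bound by factors of the heart and vessels, was searched as AGATAA. The AP-1 motif, a target of growth signals, was searched as TGANTCA. The GC box of many promoters was searched as GGGCGG. The TEAD motif of Hippo signalling was searched as GGAATG.
Edn1, chr17:22666688-22666937, minus strand: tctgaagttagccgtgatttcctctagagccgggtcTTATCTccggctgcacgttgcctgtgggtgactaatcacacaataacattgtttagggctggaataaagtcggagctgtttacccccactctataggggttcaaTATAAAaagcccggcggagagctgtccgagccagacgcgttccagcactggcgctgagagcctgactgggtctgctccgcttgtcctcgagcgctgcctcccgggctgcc
Agtr1a, chr17:34435433-34435682, minus strand: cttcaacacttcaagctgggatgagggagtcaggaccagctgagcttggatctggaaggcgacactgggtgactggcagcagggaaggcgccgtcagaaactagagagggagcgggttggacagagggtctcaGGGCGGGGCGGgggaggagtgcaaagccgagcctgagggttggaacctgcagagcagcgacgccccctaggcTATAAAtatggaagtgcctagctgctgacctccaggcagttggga
Ednra, chr19:47137674-47137923, plus strand: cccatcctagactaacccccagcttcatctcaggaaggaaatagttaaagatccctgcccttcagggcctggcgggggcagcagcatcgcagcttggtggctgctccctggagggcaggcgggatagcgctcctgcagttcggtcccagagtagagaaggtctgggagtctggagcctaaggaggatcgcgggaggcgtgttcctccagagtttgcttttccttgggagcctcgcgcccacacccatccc
Ednrb, chr15:87086766-87087015, minus strand: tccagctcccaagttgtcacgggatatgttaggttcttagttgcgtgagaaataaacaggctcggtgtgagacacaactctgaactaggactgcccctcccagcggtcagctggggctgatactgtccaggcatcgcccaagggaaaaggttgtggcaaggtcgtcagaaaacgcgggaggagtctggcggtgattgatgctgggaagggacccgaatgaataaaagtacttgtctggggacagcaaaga

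The Edn1 window held a TATA box match at bases -110 to -105 and a GATA motif on the opposite strand at -214 to -209, counted back from the gene start. The Agtr1a window held a TATA box at -45 to -40 and a pair of GC boxes at -117 to -112 and -112 to -107 that share 1 base. Neither endothelin receptor window held any of the 5 motifs. Among 33469 rat promoters of the same length, 12.9% held the TATA box letters, 10.3% the GATA letters, 6.34% the AP-1 letters, 30.5% the GC box letters and 12.1% the TEAD letters. A match is a description of the letters only. On rn6, the build of the counts, Edn1 lies on chromosome 17 and spans 22137324 to 22143324, Agtr1a on chromosome 17 spans 35907106 to 35958077, Ednra on chromosome 19 spans 33928356 to 33991703 and Ednrb on chromosome 15 spans 88006961 to 88036354. In the annotation used for counting, no exon of the 8 genes overlapped an exon of another gene.

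Other genes of the renin-angiotensin system, a list of 21, held 14 tested genes. Of these, adult cells held 6 at a higher and 4 at a lower level than fetal cells (median log2 difference 0.19). This is near the share of all tested genes called, 70.5%. The largest rises were in the processing enzymes Anpep and Ctsd. Anpep, an aminopeptidase that trims angiotensin III, rose from a fetal mean of 12 ± 1.32 CPM to a neonatal mean of 64.9 ± 2.35 and an adult mean of 366.9 ± 10.6 CPM (log2 4.93, SE 0.0919, edgeR adjusted p = 6.94e-10, adult against fetal). Ctsd, a lysosomal protease that can release angiotensin I from angiotensinogen, rose from 368 ± 71.8 to 799.7 ± 13.7 and 5190.4 ± 62.6 CPM (log2 3.82, edgeR adjusted p = 4.29e-08). Both are also abundant in macrophages, whose markers rose in the same libraries, and the part of those cells was not tested. Atp6ap2, the prorenin receptor, rose at each step, from 36.1 ± 5.92 to 54.6 ± 1.68 and 83.4 ± 3.76 CPM (edgeR adjusted p = 8.87e-06 for adult against fetal). Of the enzymes that degrade angiotensins, Mme (neprilysin) was lower in adult cells, at 13.1 ± 4.46 against 30.9 ± 2.79 CPM in fetal ones (log2 -1.24, edgeR adjusted p = 0.000476). Lnpep, the aminopeptidase that binds angiotensin IV, fell from 7.19 ± 1.053 to 2.07 ± 0.469 CPM (log2 -1.80, adjusted p = 4.05e-05). Mtus1, whose product binds the type 2 receptor, fell from 63.0 ± 4.23 to 31.1 ± 2.21 CPM (log2 -1.02, adjusted p = 2.88e-06). Prep, prolyl endopeptidase, fell from 131 ± 20.4 to 72.5 ± 2.24 CPM (log2 -0.85, adjusted p = 6.45e-05), and Prcp, which cuts angiotensin II, rose from 38.6 ± 2.10 to 60.7 ± 3.76 CPM (log2 0.65, adjusted p = 3.23e-05). Against neonatal cells 6 of the list were higher and 4 lower in adult cells (63.5% of all genes called). From fetal to neonatal cells 5 were higher and 3 lower (36.3% of all genes called). Mas1, the receptor of angiotensin 1-7, had 4 to 10 counts in each library.

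The endothelin list held 6 further genes, of which only Ece2 was tested and 5 were at or below 3 counts in all 9 libraries. Of the kinin genes, which belong here because angiotensin converting enzyme also destroys bradykinin, 9 of 10 were in the table and 5 were tested. Bdkrb2, the constitutive bradykinin receptor, fell early, with 14.4 ± 2.62 CPM in fetal but 1.72 ± 0.311 in neonatal cells (log2 -3.07, edgeR adjusted p = 2.00e-05) and stood at 1.84 ± 0.254 in adult cells. Klkb1, plasma prekallikrein, had 0, 1 and 1 counts in fetal, none in neonatal and 42, 48 and 62 counts in adult libraries, at least 25.0-fold above fetal cells. It passed the filter on low counts only through the adult libraries, so its call is no support for a difference. Bdkrb1, the inducible receptor, was at 0.646 ± 0.0996, 0.225 ± 0.0862 and 1.09 ± 0.389 CPM and was called higher in adult than in neonatal cells (log2 2.27, adjusted p = 0.00174). In the kinin list, Klkb1 included, 3 genes were higher and 0 lower in adult against neonatal cells (63.5% of all genes called). For adult against fetal cells 1 was higher and 1 lower (70.5%), and the 1 higher gene was Klkb1, whose call is no support. For neonatal against fetal cells 0 were higher and 2 lower (36.3%). Without fetal replicate 3, 3 were higher and 1 lower in adult against fetal cells (74.8% of all genes). The same counts were found without adult replicate 3 (66.2%).

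Downstream of the receptors, 46 of 47 signalling genes were tested, and 18 were higher and 18 lower in adult than in fetal cells (median log2 difference 0.02), where 70.5% of all genes were called. Between adult and neonatal cells 16 were higher and 20 lower (63.5% of all genes called), and from fetal to neonatal cells 12 were higher and 1 lower (36.3%). Without both fetal replicate 3 and adult replicate 1 the last count was 22 higher and 5 lower (53.0%). The largest rises included genes of the phagocyte NADPH oxidase. Cybb, its catalytic subunit, rose from 1.054 ± 1.57 CPM (fetal) to 175 ± 14.8 CPM (adult; log2 7.43, SE 0.628, edgeR adjusted p = 8.53e-06), with 2.87 CPM in fetal replicate 3 against 0.162 and 0.132 in the other fetal libraries. Ncf1 rose from 2.47 ± 2.06 to 171 ± 25.5 CPM (adjusted p = 2.36e-06) and Cyba from 58.4 ± 5.93 to 382 ± 9.70 CPM (9.45e-09). Plcb2, a phospholipase C of blood cells, rose from 0.492 ± 0.123 to 50.5 ± 3.49 CPM (3.46e-09), and the arrestin Arrb2 from 2.38 ± 0.221 to 38.1 ± 9.98 CPM (4.50e-07). All 12 macrophage markers were higher in the same libraries, and their part in these rises was not tested. Rgs4, a brake on Gq signalling, fell from 69.8 ± 47 to 12.9 ± 2.08 CPM (log2 -2.43, adjusted p = 0.00445), with fetal replicate 3 at 15.7 CPM against 95.0 and 98.9.

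Named after their values were seen, the Gq subunit Gnaq stood at 34.6 ± 4.57 CPM in fetal, 35.1 ± 3.04 in neonatal and 15.1 ± 1.67 in adult cells (log2 -1.20 for adult against fetal, edgeR adjusted p = 2.36e-05). Its partner Gna11 stood at 41.1 ± 2.28 CPM in fetal and was lower in adult cells, at 27.5 ± 1.21 CPM (adjusted p = 6.65e-05). Nox4, the NADPH oxidase of fibroblasts and muscle, fell from 18.5 ± 5.11 to 3.50 ± 0.280 CPM (log2 -2.40, adjusted p = 7.11e-06). Rgs2, another brake on Gq signalling, rose from 28.6 ± 1.35 CPM in fetal to 132 ± 84.6 CPM in adult cells (log2 2.21, adjusted p = 0.000631), with 230 CPM in adult replicate 1 against 79.9 and 86.3.

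**Figure D4:**
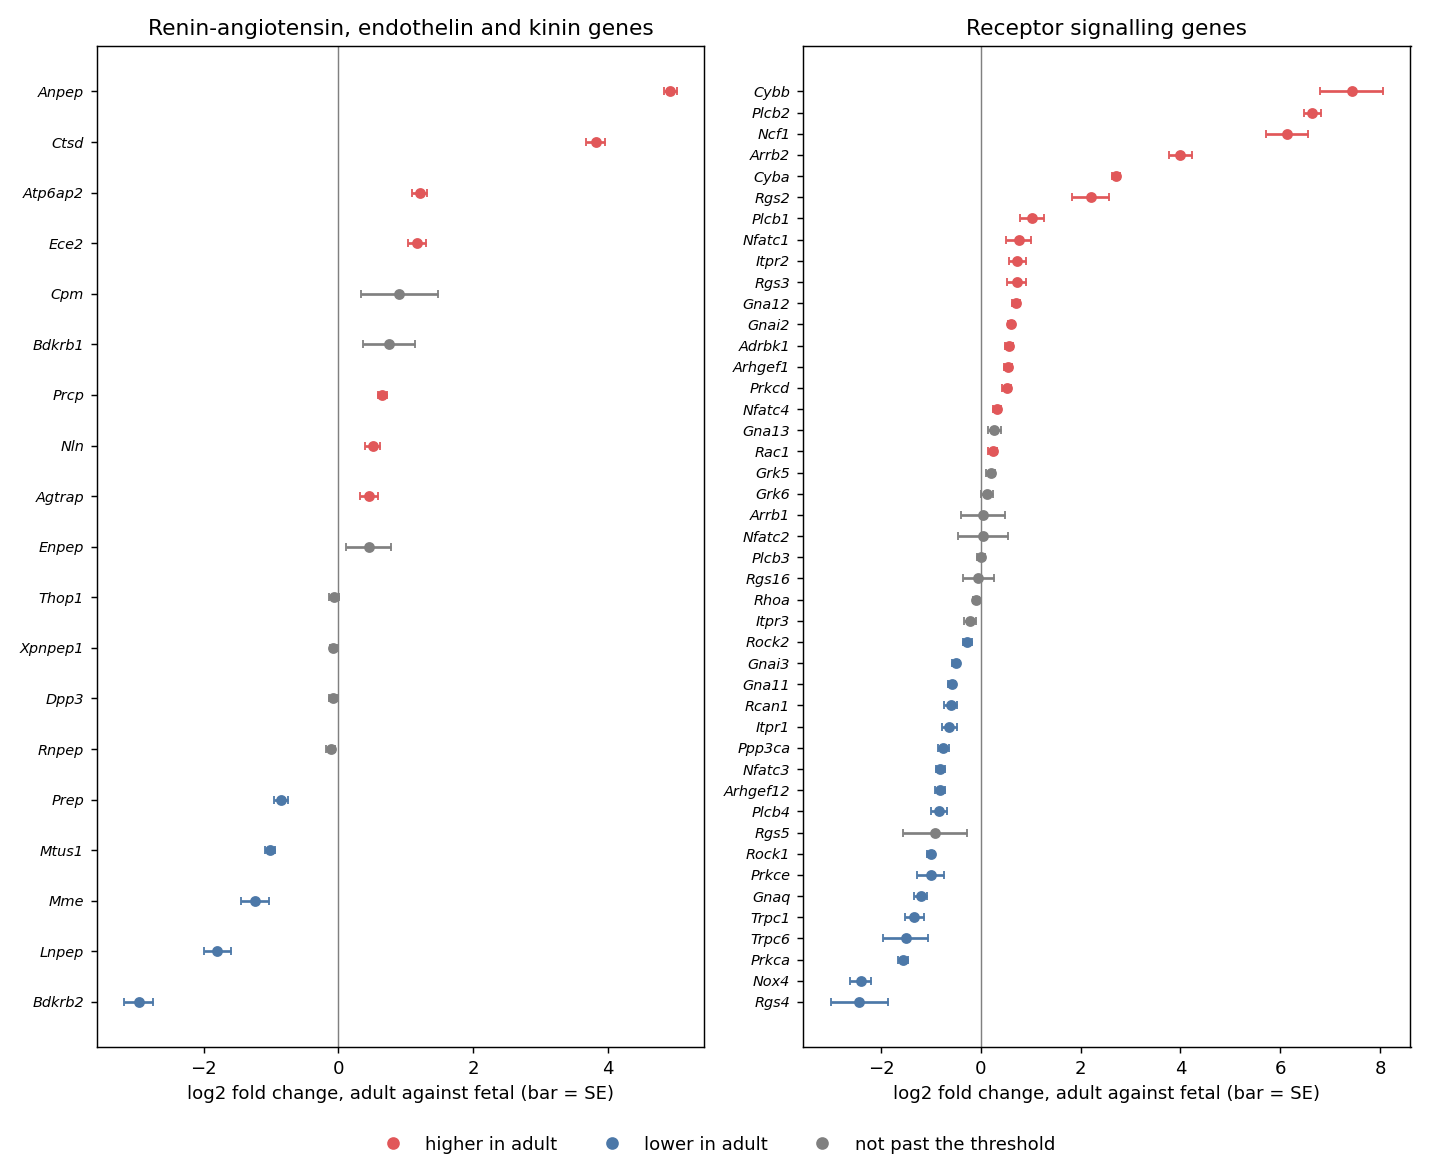
Log2 fold change of adult against fetal cells with its SE for 63 tested genes of the renin-angiotensin, endothelin and kinin lists (left) and the receptor signalling list (right), red where called higher, blue where called lower and grey where not past the threshold. Genes for which all libraries of 1 age were at or below 3 counts, such as Klkb1, are not drawn; Cybb, Plcb2 and Ncf1 stand highest, and Bdkrb2, Nox4 and Rgs4 among the lowest.

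The genes whose log2 CPM followed each of the members most closely over the 9 libraries were taken from 8940 genes whose mean reached 10 CPM in at least 1 age. The points share libraries, depth and the age groups, so these correlations describe the same 3 ages. Edn1 was followed by Rnd1, a small GTPase (Pearson r = 0.997), and Igf1, insulin-like growth factor 1 (0.997), and 1363 genes had r over 0.9 with it. Ednra was followed by Trim55, a muscle ubiquitin ligase (0.999), and Tjp1, a tight junction protein (0.997). The mean level of Trim55 was 109 CPM in fetal cells but 30.2 in neonatal and 0.775 in adult ones, and the cardiomyocyte markers were lowest in the same adult libraries. Agtr1a was followed by Wdtc1 (0.995) and the lysosomal peptidase Tpp1 (0.993), and Ece1 by the endocytic receptor Lrp1 (0.992) and Islr (0.990). For the low genes the correlations were weaker, with 0.961 and 0.957 for Mob2 and Rita1 (Agt), 0.958 and 0.943 for Fmod and Slfn3 (Ace) and 0.961 and 0.960 for Dnajb1 and Cd55 (Ednrb).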

How the data were processed

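Gene counts for 9 libraries were used as deposited. These are raw counts that the authors obtained, per the file headers, by running featureCounts 1.6.3 on sorted alignments against an rn6 annotation. Only annotation and output options were set, hence unstranded, per read and without multi-mapped reads. The submitters' processing notes also name FastQC, Trimmomatic 0.39, STAR 2.5.2b and DESeq2. A deposited table of normalized values was not used here.

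The tests used edgeR 4.0.16 under R 4.3.3 (filterByExpr, TMM, robust quasi-likelihood, age as the only term, all 9 libraries, Benjamini-Hochberg over 11337 genes, threshold 0.05), after a test on simulated data. CPM were computed here with TMM-scaled totals. SEs derive from the fold change and F statistic. Libraries of 1 age differed beyond counting error, by chi-square per degree of freedom. It was 2.05 to 2.76 for neonatal pairs and 3.94 for fetal replicates 1 and 2. Pairs with fetal replicate 3 gave 90.0 and 97.3, and those with adult replicate 1 gave 25.8 and 43.0. Adult replicates 2 and 3 gave 6.76. No library was dropped as a duplicate, but these values cannot tell separate cultures from technical repeats. Alternatives included DESeq2 1.42.0, other scalings, no filter, a replicate block and leaving out each library.

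The members, pathway and marker lists were chosen with earlier results of these data known. The text names all 8 members, at most 8 called genes of each pathway list by size of the adult against fetal change, and the 2 genes most alike each tested member. Grk2 was matched as Adrbk1. Some genes of the lists enter the counts but are not reported here by name. Of the 3 erythroid markers in the table, none exceeded 3 counts in any library.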

Additional observations from a re-analysis of the deposited data

How the results depend on the processing

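Among recomputed log2 fold changes of the members, 312 kept their direction and side of the threshold, 11 gained and 11 lost the call, and 2 reversed. The neonatal against fetal difference of Ednrb reversed to 0.060 without fetal replicate 3, within -0.60 to 0.060 over single libraries left out, and to 0.066 without both fetal replicate 3 and adult replicate 1. Members called for neonatal against fetal cells numbered 1 in the reported fit (36.3% of all genes called), 2 with DESeq2 (31.9%), 3 with the replicate block (32.8%), 4 without both of those libraries (53.0%), and 1 to 3 when 1 library was left out (21.5% to 40.6%). These counts include Agtr2 in the fits where it passed the filter, which it did through its high fetal libraries. For adult against neonatal cells 5 (63.5% of all genes called) became 3 at an adjusted p under 0.01, a threshold with no share of all genes given. Leaving out 1 library gave 3 to 6 there (53.8% to 72.2% of all genes). For adult against fetal cells leaving out 1 library gave 4 to 7 (65.0% to 74.8%). Agtr2 is included in these counts in the same way. The causes of these shifts were not tested. The same replicate number did not pair the libraries: same-numbered deviations from the age means correlated at -0.0649 to 0.0521 over the 9 pairs. With the replicate block, Agtr1a and Ece1 were also called from fetal to neonatal cells (edgeR adjusted p 0.0380 and 0.0263). The endothelin receptor balance, 3.98 higher in adult than in fetal cells, then gave an exact permutation p of 0.0556. Scaling by library size alone put the median of all genes at -0.18 for neonatal against fetal cells (-0.0053 in the reported fit). There 29.0% of the called genes were higher, against 50.4%. For adult against fetal cells the median was -0.12 (-0.013 in the reported fit). This scaling changed no call or direction of a member. At 0 to 10 counts a library (Agtr2 in neonatal and adult cells, Mas1, Agtr1b), depth allows no statement beyond the counts.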
